A study of Rattus norvegicus with 8 samples.

Results

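Fbxo32 and Trim63, the genes of the muscle ubiquitin ligases atrogin-1 and MuRF1, were followed in castrated rats after a dose of testosterone. The members were every gene spot that the array files name Fbxo32 or Trim63, which was 1 spot of 1 probe for each gene among 42877 gene spots on an array, and both genes were among the 10849 genes tested. All animals were castrated male Wistar rats of 120 ± 12 days. The treated RNA came from rats given 1 subcutaneous injection of 4 mg/kg testosterone propionate, an ester of testosterone, in corn oil at 1 mL/kg, and was collected 8 h or 24 h after it. The control RNA came from castrated rats, and whether these received oil is not given in the sources used here. Each of 8 two-colour arrays carried treated RNA in one dye and control RNA in the other, with 4 arrays at 8 h and 4 at 24 h. Whether an array holds RNA of 1 animal or of a pool, and whether arrays of opposite dye repeat the same extracts, is also not given; if they do, the p-values are too small, since they measure only the spread between these arrays. Castration removes the main source of testosterone, so the controls are androgen-depleted animals and no intact rat was included.

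Atrogin-1 is an F-box protein: it brings its targets to a ubiquitin ligase built on Skp1, Cul1 and Rbx1. MuRF1 carries a RING finger of its own, binds the sarcomere and marks contractile proteins for the proteasome. Both transcripts are textbook markers of muscle wasting, rise with fasting, disuse, glucocorticoids and castration, and are known to be switched on by FoxO factors, which IGF-1 and Akt signalling hold back; the glucocorticoid receptor also acts on the Trim63 promoter.

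The probes of 60 bases that stand for the members are shown because each level rests on 1 of them. The Fbxo32 probe was placed by the array files on rat build rn4 at chr7:94921822-94932899, listed from the higher to the lower coordinate, a span of 11078 bp for 60 bases, so that it joins exon sequence across an intron. The Trim63 probe lies at chr5:153069319-153069378 in 1 unbroken stretch. Exon numbers and untranslated regions on rn4 were not used here.
Fbxo32 probe: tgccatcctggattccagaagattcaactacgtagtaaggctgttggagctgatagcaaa
Trim63 probe: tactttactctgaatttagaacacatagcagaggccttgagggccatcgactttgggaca

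The promoter of Trim63 is shown for the motifs of the receptor and factors named above. It is the 250 bases before the RefSeq start on build GRCr8, chr5:151816986-151817235 on the plus strand, and the capitals mark a steroid receptor core motif (AGAACA, here as TGTTCT) that runs straight into a FoxO motif (GTAAACA, here as TGTTTAC).
Trim63 promoter: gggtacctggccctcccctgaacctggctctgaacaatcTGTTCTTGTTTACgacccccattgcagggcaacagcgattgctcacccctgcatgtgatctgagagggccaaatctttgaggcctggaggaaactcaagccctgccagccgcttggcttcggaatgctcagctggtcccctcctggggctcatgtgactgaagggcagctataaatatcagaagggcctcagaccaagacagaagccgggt
The core motif lay at -211 to -206 and the FoxO motif at -205 to -199, counted from the start site. With both strands searched, 17.5% of 33469 rat promoters of this length held AGAACA and 3.21% held GTAAACA. The same core motif was the right arm of a match, with 1 letter different, to the steroid receptor palindrome of AGAACA and TGTTCT around 3 free bases, at -220 to -206; 0.161% of the promoters held such a match. E-boxes (CANNTG, the motif of MyoD and myogenin) began at -160, -83 and -61, against a share of 65.5% of promoters with at least 1. A TATAAA stood at -42 to -37, as in 12.9% of promoters. These are matches of letters; no binding was measured here. For Fbxo32 no promoter is printed.

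The arrays carried RNA of skeletal muscle, as the series title has it, although the labels do not name the muscle. Of 15 fibre markers such as Ckm and Acta1, 13 had a probe and all 13 were above background on all arrays, whereas 0 of 7 markers of epithelium and male accessory glands passed the signal filter and 2 of 6 cardiac markers did. The summed fibre marker level ran on the log2 scale from 17.4 to 17.6 in the 24 h controls and from 17.1 to 17.3 in the treated channels. At 24 h 2 of 4 tested macrophage markers were called higher in treated muscle (summed level 9.15 to 9.36 in controls, 9.47 to 9.84 treated). So was 1 of 3 adipocyte markers, where 4.18% of all genes were called higher. Of the 13 fibre markers 1 was called lower (median log2 ratio -0.21), where 2.93% of all genes were. The erythrocyte marker Hbb read -0.84 at 8 h and 0.71 at 24 h and was not called, with 8 h control levels from 11.05 to 13.75. The part of these markers in the results was not tested. At 8 h 2 arrays stood apart. On replicate 1 the log2 ratios of all genes had an SD of 0.444, against 0.180 to 0.201 on the other 8 h arrays, and replicate 2 correlated across genes with replicates 3 and 4 at only -0.12 and -0.04. At 24 h the SDs lay between 0.236 and 0.306. Each time had a slide of its own, and an effect of time therefore cannot be told apart from one of slide.

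Fbxo32 was the gene with the lowest treated level relative to control among all 10849 genes at 24 h. Its transcript stood at 18.9%, 24.2%, 11.2% and 20.3% of the control level on replicates 1 to 4. All 4 arrays gave a value at or below 24.2%. In bulk RNA fewer cells of a type and less RNA per cell cannot be told apart. On the log2 scale the treated-over-control ratios were -2.40, -2.04, -3.16 and -2.30, a mean of -2.48 ± 0.48 (SD, n = 4). Ranked within each array, Fbxo32 was the second lowest gene on replicates 1 and 2 and the lowest on replicates 3 and 4. The fit over all genes gave a 5.57-fold lower level (95% interval 4.09 to 7.59; SE 0.20 on the log2 scale; limma, Benjamini-Hochberg adjusted p = 0.000126), where 7.11% of all genes tested were called at 24 h and 2.93% were called lower. The size moved with the background correction: Feature Extraction's processed signals gave a 9.32-fold lower level. The treated Fbxo32 spots of replicates 3 and 4 read 83.1 and 95.5 intensity units over local backgrounds of 36 and 39, and all were above background. The direction and the call held in all 22 alternatives tried. In some of these, such as other filters, no dye term or 8 h arrays left out, the ratio stayed at -2.48 by design. Only the p-value could change there.

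At 8 h the ratio of Fbxo32 was nearer to 0 and did not pass the test. The level stood at 44.4%, 97.4%, 48.6% and 61.4% of control on replicates 1 to 4, log2 ratios of -1.17, -0.04, -1.04 and -0.70. All 4 arrays were below control, 3 of them at ratios of -0.70 or lower and replicate 2 at a ratio near 0. The mean was -0.74 ± 0.51 (SD, n = 4), and the fit gave an SE of 0.20 with an adjusted p of 0.262 by limma; at this time 3 of all genes were called, which is 0.0277% (0.00922% lower, 0.0184% higher). By size of mean ratio Fbxo32 was the 11th lowest of all genes. Within arrays it was the 8th lowest on replicate 3 and the 25th on replicate 4, but the 223rd on replicate 1, whose ratios spread widely, and the 4636th on replicate 2. Without replicate 2 the log2 ratio was -1.04 with an adjusted p of 0.0119 by limma; the same removal took the count of called genes from 3 to 1235.

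**Figure D1:**
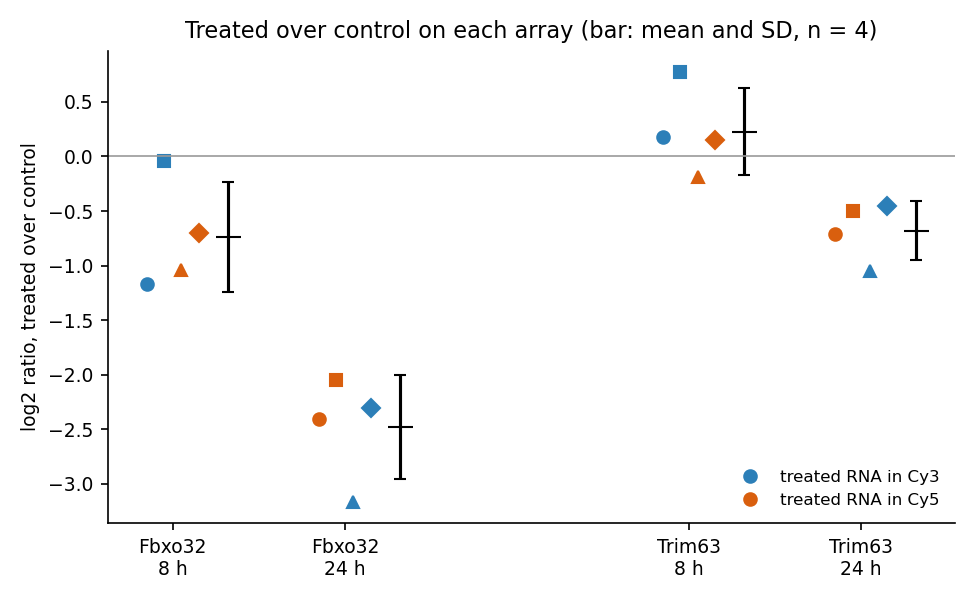
Log2 ratio of treated over control for Fbxo32 and Trim63 on each array at 8 h and 24 h, coloured by the dye that carried the treated RNA; marker shapes are the replicate numbers (circle 1, square 2, triangle 3, diamond 4), and the bars give mean and SD over 4 arrays. All Fbxo32 values at 24 h lie at or under -2.04, and Trim63 passes from 3 of 4 values above 0 at 8 h to 4 of 4 below 0 at 24 h.

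Trim63 was lower at 24 h too, by a smaller ratio. The 24 h levels were 61.1%, 70.7%, 48.2% and 72.9% of control on replicates 1 to 4, log2 ratios of -0.71, -0.50, -1.05 and -0.46. All 4 arrays were below control, and replicate 3 was the lowest for both genes. The fit gave a 1.60-fold lower level (95% interval 1.29 to 1.99; log2 ratio -0.68, SE 0.14, limma adjusted p = 0.0202), the 61st lowest mean ratio of 10849. The call was lost without 3 of the arrays: leaving out 24 h replicate 1, 3 or 4 gave an adjusted p by limma of 0.104, 0.0910 or 0.0577, with log2 ratios of -0.70, -0.50 and -0.73, and centring each array on its median in place of loess gave -0.51 with an adjusted p of 0.0808. Its spots were dimmer than those of Fbxo32, with mean signals of 63.7 to 170.0 intensity units over local backgrounds of 30.5 to 39 at 24 h, and Feature Extraction's processed signals gave a 2.46-fold lower level.

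At 8 h Trim63 stood at 113%, 171%, 87.5% and 111% of control on replicates 1 to 4. These are log2 ratios of 0.18, 0.77, -0.19 and 0.15, so 3 arrays lay above control and 1 below. The mean of 0.23 ± 0.40 (SD, n = 4) was smaller than the spread between arrays (limma, 95% interval -0.09 to 0.54, adjusted p = 0.404). The highest value came from replicate 2, the array on which Fbxo32 was nearest to control.

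Between the times, the treated-over-control ratio of Fbxo32 was lower at 24 h than at 8 h, with a log2 difference of -1.74, a ratio 3.34-fold lower (95% interval 2.16 to 5.16; SE 0.28; limma adjusted p = 0.0204), with 1.47% of all genes called in this comparison. It was again the lowest of all genes. The lowest 8 h array (-1.17) lay above the highest 24 h array (-2.04), so the times did not overlap. The adjusted p by limma rose above 0.05 without 8 h replicate 4 (0.0617), 24 h replicate 1 (0.0872) or 24 h replicate 3 (0.0502) and under median centring (0.101), at differences of -1.75, -1.75, -1.49 and -1.78, and the processed signals made the ratio 5.19-fold lower. For Trim63 the difference was -0.91 (SE 0.20, 95% interval -1.35 to -0.46), with an adjusted p of 0.0601 that missed the threshold; without 8 h replicate 2 it was -0.72 with 0.0422, and the processed signals gave -1.57 with 0.134. Its arrays did not overlap between times either (-0.19 at the lowest at 8 h, -0.46 at the highest at 24 h). An exact permutation test of the 4 against 4 arrays, two-sided, gave p = 0.0286 for each gene, the smallest that 70 splits allow. Any gene without overlap gets this value, so it adds nothing to the non-overlap, and it is not adjusted over all genes. How many of all genes did not overlap was not counted. By limma 1765 of all 10849 genes had an unadjusted p under 0.05 in this comparison.

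On every array the Fbxo32 ratio lay below the Trim63 ratio. The gap was -1.35, -0.81, -0.85 and -0.85 on the 8 h replicates 1 to 4, a mean of -0.97 ± 0.26 (SD, n = 4). At 24 h it was -1.69, -1.54, -2.11 and -1.85, a mean of -1.80 ± 0.24. The 8 h and 24 h gaps did not overlap, and the gap of 8 h replicate 2 was like those of replicates 3 and 4 although both of its ratios were higher. Both dye orientations gave a fall at 24 h. With the treated RNA in Cy5 and in Cy3 the 24 h mean was -2.22 and -2.73 for Fbxo32 and -0.61 and -0.75 for Trim63. At 8 h it was -0.87 and -0.61 for Fbxo32 and -0.02 and 0.48 for Trim63. The Cy3 arrays at 8 h were replicates 1 and 2, so dye and array cannot be told apart there. The fitted dye effect was 0.06 for Fbxo32 and -0.09 for Trim63 (limma adjusted p = 0.899 and 0.768). It averages over both times, between which the dye difference changed sign for both genes.

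The normalized levels are given for each channel. Each time had a slide of its own, so a shift of a channel between times cannot be told apart from one of slide. After adjustment over 4 level comparisons, no such shift passed the threshold for either gene. Fbxo32 in control RNA read 10.43, 10.19, 10.06 and 9.72 log2 intensity units on the 8 h replicates, and on the 24 h replicates 9.80, 9.49, 10.10 and 9.44. In treated RNA it read 9.26, 10.15, 9.02 and 9.02 on the 8 h arrays, and on the 24 h arrays 7.40, 7.44, 6.94 and 7.13. The later treated levels lay below every other group, while the treated 8 h levels overlapped the controls. In order of mean level the groups were control 8 h (10.10 ± 0.29), control 24 h (9.71 ± 0.31), treated 8 h (9.36 ± 0.54) and treated 24 h (7.23 ± 0.24; SD, n = 4 each). The first pair of neighbours did not differ beyond its spread (difference -0.39, exact permutation p = 0.143, two-sided, 0.190 adjusted over 4 level comparisons) and the second pair overlapped; the treated level at 24 h minus that at 8 h was -2.13 (exact permutation p = 0.0286, 0.0571 adjusted).

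Trim63 in control RNA read 7.59, 7.48, 7.31 and 7.31 on the 8 h replicates, and on the 24 h replicates 7.23, 7.17, 7.57 and 7.44. In treated RNA it read 7.77, 8.26, 7.11 and 7.46 on the earlier arrays, and on the later ones 6.52, 6.67, 6.52 and 6.98. The control levels of both times overlapped, and the treated 24 h levels lay below all other channels. By mean level the order was treated 8 h (7.65 ± 0.48), control 8 h (7.42 ± 0.14), control 24 h (7.35 ± 0.18) and treated 24 h (6.67 ± 0.22). The first 3 groups overlapped, the control levels differing between times by -0.07 (exact permutation p = 0.514, two-sided), and the treated level at 24 h minus that at 8 h was -0.98 (exact permutation p = 0.0286, 0.0571 adjusted).

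**Figure D2:**
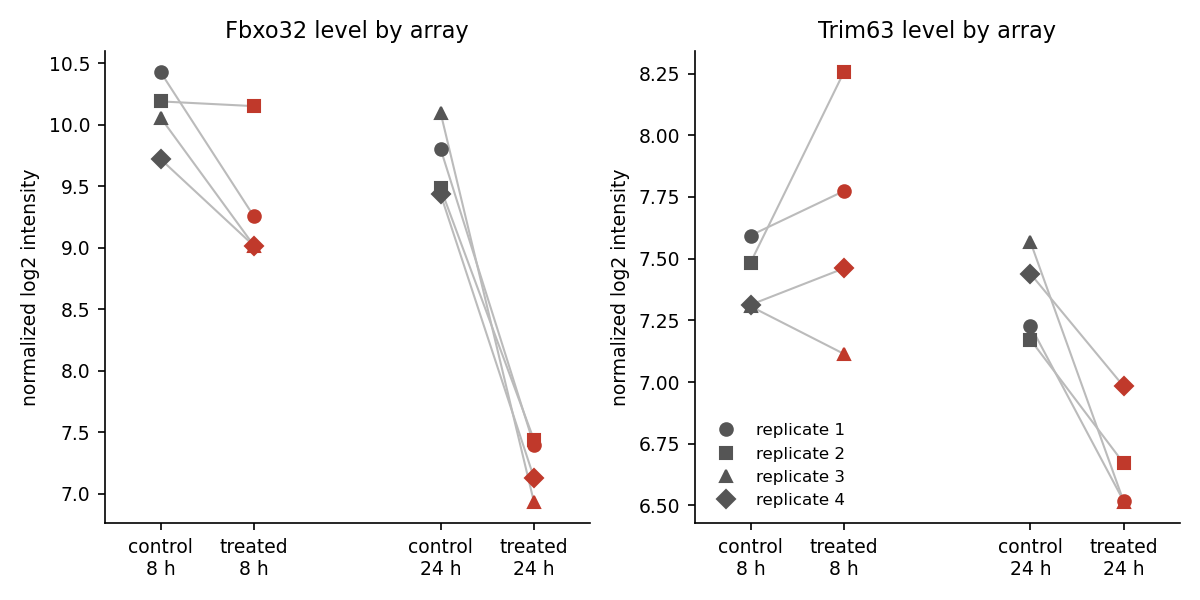
Normalized log2 intensity of Fbxo32 and Trim63 in the control (grey) and treated (red) channel of each array, joined by a line per array; marker shapes are the replicates. Control levels of Fbxo32 span 9.44 to 10.43 over both times, whereas the treated 24 h values lie between 6.94 and 7.44; the vertical scales differ between panels.

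Genes were ranked by how near in size their ratios lay to those of each member over the 8 arrays. The measure was the root mean square (RMS) difference of the log2 ratios, over 8021 genes. It does not tell whether genes rise and fall together. The arrays of a time share a slide, and the ranking is a description. Neighbours were picked by their ratios on these same arrays, so their p-values are no separate support. Nearest to Fbxo32 were Ucp3, a mitochondrial uncoupling protein of muscle (RMS 0.534), Klhl38, a kelch-repeat protein (0.632), Mettl7a, a methyltransferase-like protein (0.650), Pik3ip1, an inhibitor of PI3-kinase (0.721), and Lmod2, a nucleator of actin filaments (0.806). At 24 h Ucp3 read -2.04, -2.19, -1.90 and -1.76 and Mettl7a -2.12, -2.00, -2.06 and -1.89, so neither had the low value that Fbxo32 had on replicate 3 (-3.16). Their mean ratios at 24 h were -1.97 for Ucp3 (SD 0.18, limma adjusted p = 3.82e-05), -1.94 for Klhl38 (SD 0.45, 6.29e-05), -2.02 for Mettl7a (SD 0.10, 3.51e-06), -1.80 for Pik3ip1 (SD 0.36, 6.73e-05) and -1.68 for Lmod2 (SD 0.75, 0.00205). None of these 5 passed the test at 8 h in the main fit. Without 8 h replicate 2 Ucp3 (-0.77, limma adjusted p = 0.0121) and Pik3ip1 (-0.81, 0.0159) did, where 11.4% of all genes were called. Pik3ip1 also passed with a normexp offset of 10 (0.0225), and both did with scaling between arrays (0.0303 for Pik3ip1, 0.0483 for Ucp3). At 24 h Lmod2 missed the threshold under median centring (-1.32, limma adjusted p = 0.0639).

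Trim63 had closer neighbours, at smaller ratios. They were RGD1565323 (RMS 0.183) and LOC303448 (0.244), which are named only by locus, Gapdh, an enzyme of glycolysis (0.247), Hlx, a homeobox factor (0.254), and Gsn, the actin-severing protein gelsolin (0.259). Of these, RGD1565323 (log2 ratio -0.62, limma adjusted p = 0.0200), LOC303448 (-0.45, 0.0468), Hlx (-0.66, 0.0103) and Gsn (-0.57, 0.0167) were called lower at 24 h, and Gapdh was not (-0.42, 0.0574). Under median centring none of them was called, and LOC303448 and Gapdh stood at 0.01 and 0.04, so their direction depends on the scaling. With processed signals none of the 4 was called either (adjusted p from 0.0525 for Hlx to 0.110 for RGD1565323), whereas Gapdh passed with the 24 h arrays alone (0.0171), with array weights (0.0195) and without 8 h replicate 1 (0.0439) or 2 (0.0361). Leaving out 24 h replicate 1, 3 or 4 also ended the call of RGD1565323 (largest adjusted p 0.114), leaving out any 24 h array or 8 h replicate 3 or 4 that of LOC303448 (0.204), and leaving out 24 h replicate 1 or 2 that of Gsn (0.0714). Neither member was among the 5 genes nearest to the other. At an RMS of 1.46, Trim63 was the 60th nearest of 8021 genes to Fbxo32, and Fbxo32 the 8008th nearest to Trim63. These ranks rest on the size of the ratios and do not tell whether the members varied together. Within a time the gap between them had an SD of 0.26 at 8 h and 0.24 at 24 h.

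**Figure D3:**
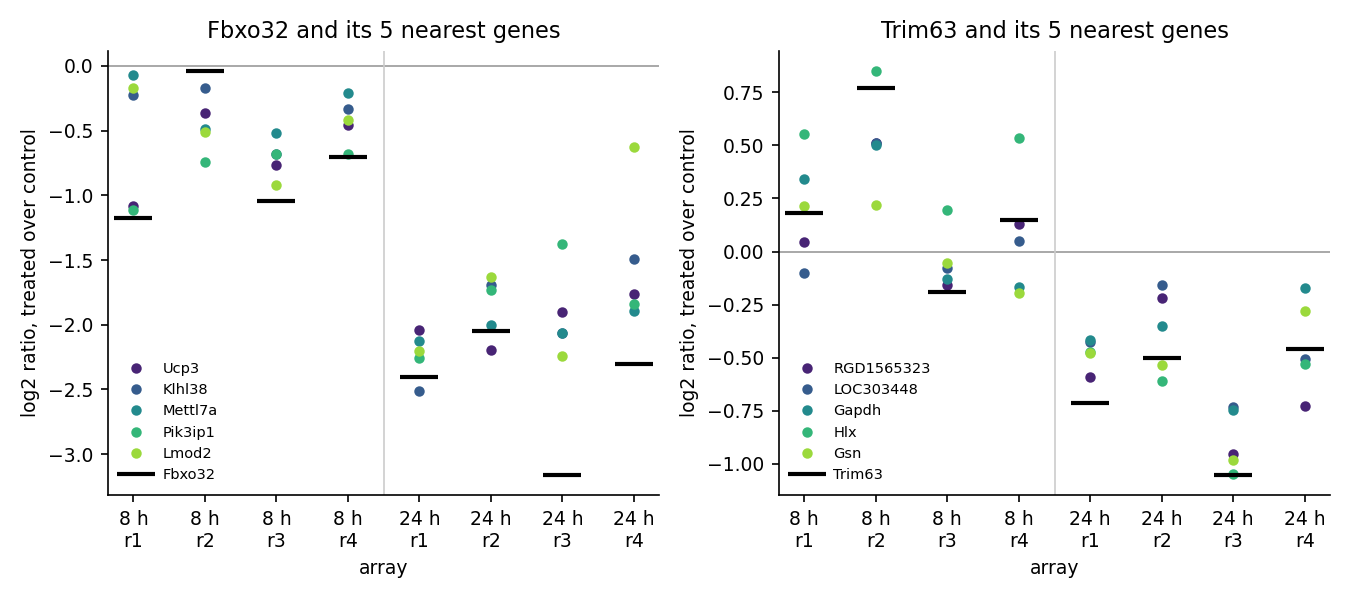
Log2 ratio of treated over control on each of the 8 arrays (r1 to r4 at 8 h and at 24 h) for Fbxo32 and Trim63 (black bars) and the 5 genes nearest to each (dots). The Fbxo32 bar lies below all 5 dots on 24 h replicates 3 and 4, and the Trim63 bar lies among or beside its neighbours on most arrays; the vertical scales differ.

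Of 42 listed regulators of these promoters 30 were tested, and at 24 h 6 were lower, 4 higher and 20 did not pass, where 2.93% of all genes were called lower and 4.18% higher. The list was chosen with earlier results of these data known and holds Pik3ip1, a neighbour of Fbxo32 above. These counts are therefore no separate support. At 8 h 0 of the 30 passed by limma. Of them 9 had an unadjusted p under 0.05, against 1864 of all 10849 genes. Without 8 h replicate 2, the named regulators Klf15 (-0.35, limma adjusted p = 0.0296), Nr3c1 (-0.30, 0.0300), Hdac4 (-0.45, 0.0363) and Pik3ip1 (-0.81, 0.0159) passed at 8 h. In that setting 11.4% of all genes were called, 848 lower and 387 higher. The median log2 ratio of the list at 24 h was -0.02, against 0.00 for all genes. Klf15, a glucocorticoid-induced factor that acts on both promoters, read -1.22, -1.11, -1.16 and -0.92 on the 24 h arrays. These 4 values were all below its lowest at 8 h (-0.55), with a mean of -1.10 ± 0.13 (SD, n = 4; limma adjusted p = 4.04e-05). Igf1, the growth factor whose signal keeps FoxO out of the nucleus, read 1.76, 1.60, 2.07 and 1.56, against -0.28 to 0.96 at 8 h. Its mean was 1.75 ± 0.23 (SD, n = 4; limma adjusted p = 8.83e-05), and its second probe gave 1.61.

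Pik3ip1, which stands in this list as well as beside Fbxo32 above, fell to -1.80. Hdac4, a deacetylase linked to nerve activity, fell by 0.84 (adjusted p = 0.00423), and Mapk14, the kinase p38 alpha, rose by 0.81 (0.00220; limma). The calls of these 5 genes at 24 h held in every setting run. The calls of Cebpb, a bZIP transcription factor (-0.62, adjusted p = 0.0349), Sgk1, a steroid-induced kinase (-0.49, 0.0164), and Myog, which encodes myogenin (0.37, 0.0393), were each lost under median centring. Leaving out 24 h replicate 2, 3 or 4 ended that of Sgk1 (adjusted p at most 0.0858). That of Cebpb went with processed signals (limma adjusted p = 0.0775) and without 24 h replicate 1, 2 or 3 (at most 0.166). That of Myog went without any 1 of the 24 h arrays (at most 0.219). Both went without 8 h replicate 3 or 4 (0.0536 to 0.0678). The ratio of Myog at 24 h ran from 0.25 to 1.44 over all settings. The 24 h ratio differed from the 8 h ratio for Klf15 (-0.75, adjusted p = 0.00962), Pik3ip1 (-0.999, 0.0318) and Igf1 (1.37, 0.0100), with 0.664% of all genes lower and 0.802% higher; without 24 h replicate 1 these adjusted p were 0.0542, 0.0899 and 0.0560 (limma). Leaving out 24 h replicate 2 or 4, or 8 h replicate 3 or 4, ended the call of Pik3ip1 as well (0.0623 to 0.124), and under median centring no gene at all was called between the times.

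Of the FoxO transcripts, Foxo3 read -0.25 at 24 h (4 of 4 arrays below 0, limma adjusted p = 0.0855), a value that missed the threshold but passed it in other settings: with processed signals it was -1.57 (0.00139), with a normexp offset of 10 it was -0.56 (0.0245), and array weights (0.0265), the 24 h arrays alone (0.0334) and leaving out 8 h replicate 1 (0.0486) or 2 (0.0389) also gave a call. The size of the Foxo3 ratio thus moved with the background correction, and no fold change of it is settled here. How near the Foxo3 spot lay to background is not given here. Foxo4 read -0.08 (0.665). No probe carried the name Foxo1. Nr3c1, the glucocorticoid receptor, read -0.15 (0.223), with -0.57 to -0.08 over all settings, and Akt1 was too dim to be tested. FoxO proteins are controlled by phosphorylation, which arrays do not measure.

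**Figure D4:**
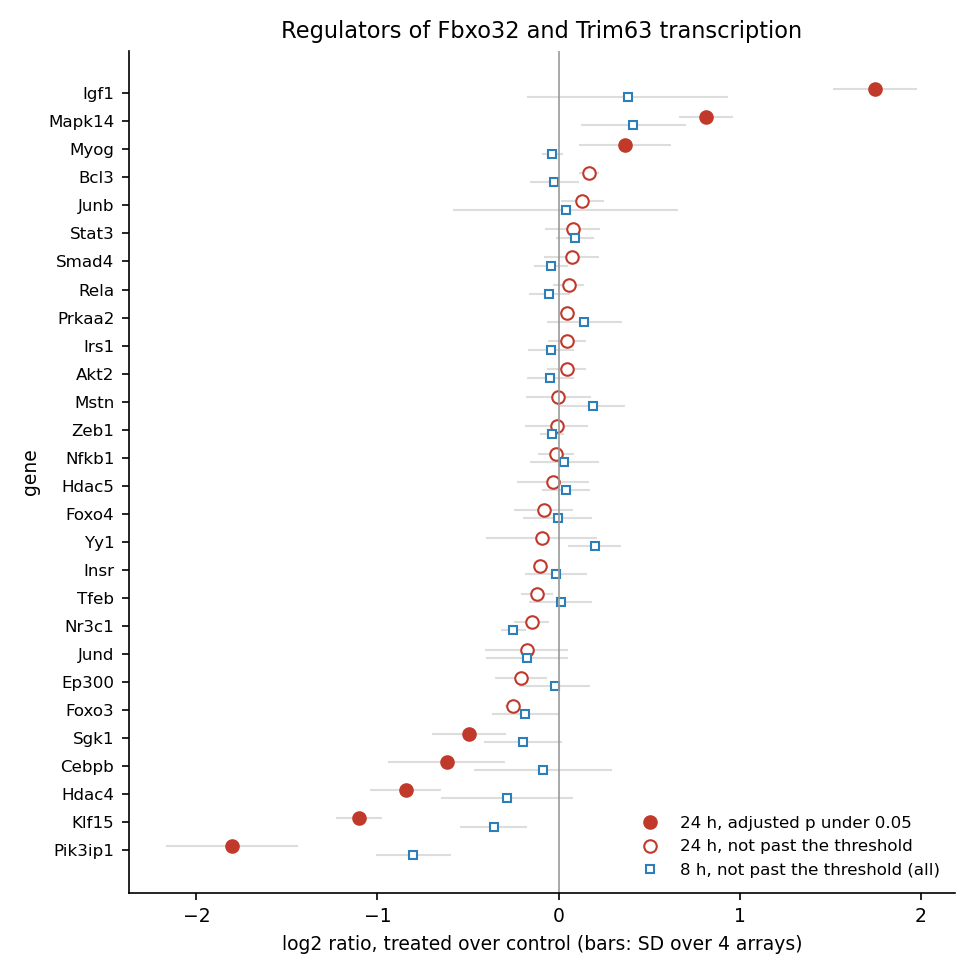
Mean log2 ratio of treated over control for tested regulators of Fbxo32 and Trim63, at 24 h (red circles, filled where the adjusted p is under 0.05) and at 8 h (blue squares, none under it); bars are SD over 4 arrays. Pik3ip1 and Klf15 lie lowest at 24 h and Igf1 highest, at 1.75.

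Of 25 listed partners of both ligases in ubiquitin transfer 21 were tested, and 1 was lower and 1 higher at 24 h, where 7.11% of all genes were called in either direction. Their median log2 ratio was 0.08. At 8 h 0 passed, and 2 had an unadjusted p under 0.05, against 1864 of all 10849 genes. Skp1 and Cul1, which hold atrogin-1, read 0.05 and 0.09 at 24 h (limma adjusted p = 0.800 and 0.595). Rbx1, the RING subunit of the same complex, was higher by 0.34 (0.0349), and Ubb, a polyubiquitin gene, fell by 0.57 (0.0439); leaving out any 1 of the 24 h arrays, or 8 h replicate 3 or 4, ended both calls (adjusted p at most 0.210). Median centring ended them too, and so did processed signals (limma adjusted p = 0.134 for Rbx1 and 0.0738 for Ubb).

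The tested close relatives did not pass at 24 h by limma. Of the 3, 1 had an unadjusted p under 0.05, against 2391 of all 10849 genes. Of 5 listed, Fbxo25, the nearest F-box paralog of atrogin-1, read -0.19 (limma adjusted p = 0.111) at 24 h, and the MuRF proteins Trim54 and Trim55 both read 0.02 (0.944 and 0.951); Trim46 and Mid1 were too dim. At 8 h the 3 tested read 0.04, 0.33 and -0.21, and 0 passed. At an unadjusted p under 0.05 there was 1, against 1864 of all 10849 genes. With array weights 1 of the 3 passed at 24 h. Of 23 other muscle ubiquitin ligases 15 were tested, with 4 lower and 0 higher at 24 h, where 2.93% of all genes were lower; 1 of the 4 was Klhl38, without 24 h replicate 1, 2 or 3 there were 2, and under median centring there was 1. The median log2 ratio at 24 h was 0.02 for the close relatives and -0.14 for the other ligases, against 0.00 for all genes. The list of other ligases was also chosen with earlier results of these data known, and Klhl38 is a neighbour of Fbxo32 above. Its counts are therefore no separate support.

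The transcripts of proteins described as targets were counted against the 7.11% of all genes called at 24 h. For atrogin-1, 8 of 10 were tested, among them Eif3f (0.04 at 24 h) and Myod1 (0.13). In either direction 0 passed at either time by limma. At an unadjusted p under 0.05 there were 1 at 8 h and 0 at 24 h, against 1864 and 2391 of all 10849 genes. For MuRF1, 16 of 30 were tested and 2 passed at 24 h. Acta1, skeletal actin, fell by 0.44 (limma adjusted p = 0.0220), a call lost without any 1 of the 24 h arrays (adjusted p 0.0662 to 0.105) and under median centring (-0.03). Processed signals (-0.30, limma adjusted p = 0.281) and a normexp offset of 10 (0.0548) ended it too. Myh1, the IIx myosin heavy chain, read 1.36, 1.60, 1.55 and 0.79 at 24 h against -2.68, -1.68, -1.83 and -0.02 at 8 h. At 8 h it missed the threshold (limma adjusted p = 0.143). It passed there with a normexp offset of 10 (0.0136), without 8 h replicate 4 (0.0367) and without replicate 2 (0.0172), where 11.4% of all genes were called. The 24 h mean of 1.33 ± 0.37 (SD, n = 4) had a limma adjusted p of 0.0211, which rose to between 0.0708 and 0.113 without 1 of the 24 h arrays. The difference between the times was 2.88 (adjusted p = 0.00973, and 0.266 under median centring); Myh1 has near-identical paralogs, so part of its signal may come from them. Ckm, creatine kinase, read -0.25 (0.373) and Ttn, titin, -0.16 (0.334). The median log2 ratio at 24 h was 0.03 for the targets of atrogin-1 and -0.12 for those of MuRF1, against 0.00 for all genes.

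**Figure D5:**
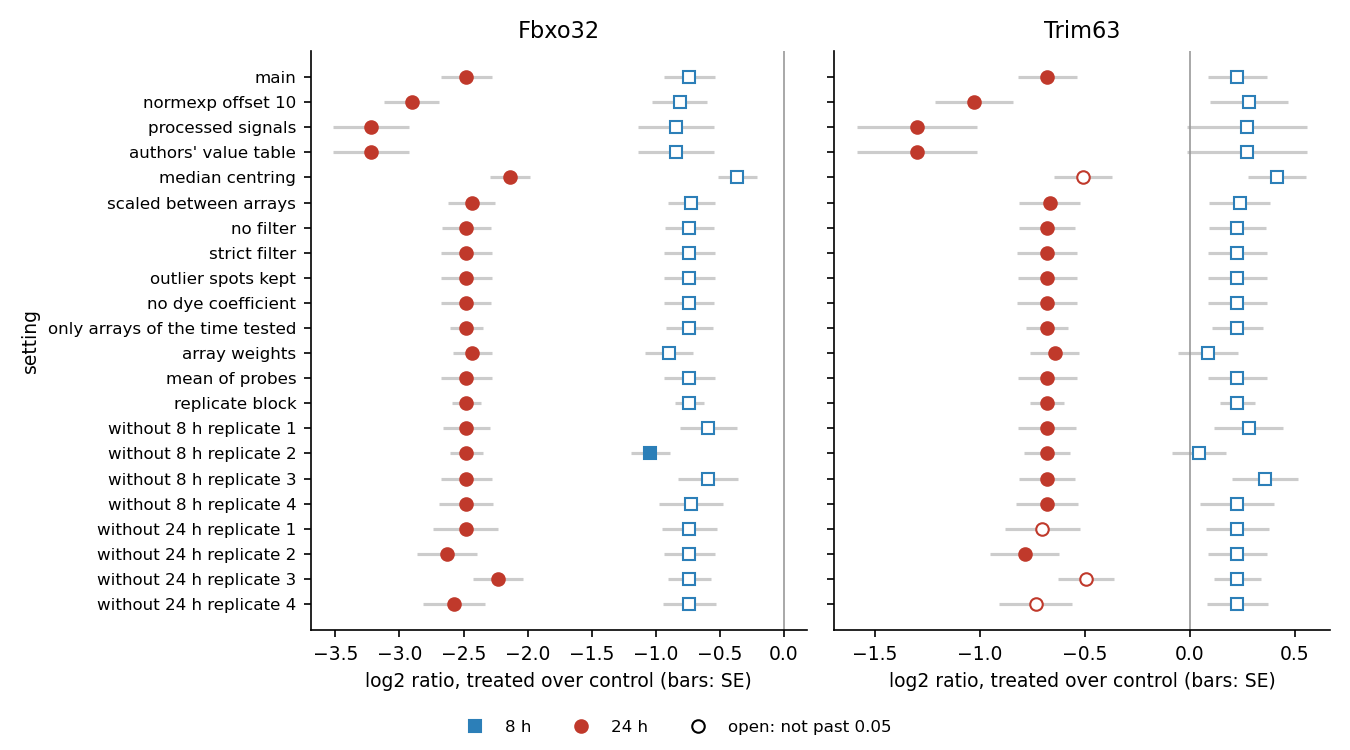
Log2 ratio of Fbxo32 and Trim63 at 8 h (squares) and 24 h (circles) under the main processing and each alternative, with SE bars; filled markers have an adjusted p under 0.05. Fbxo32 at 24 h is filled in all settings between -3.22 and -2.14, and Trim63 at 24 h is open in 4 of them.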

How the data were processed

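RNA was labelled with Cy3 and Cy5 and hybridised to 8 two-colour Agilent arrays. The submitters' processing notes name Feature Extraction 9.5.3.1 by Agilent. Deposited mean signals and backgrounds are, per the file headers, unnormalized linear intensities, and the deposited log10 ratios are red over green after dye normalization. The authors' deposited value table holds log2 ratios; it matched the processed signals, treated over control by the labelled dyes, to within 1.35e-05, with column medians from -0.144 to 0.0896.

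In limma 3.58.1 (R 4.3.3), mean signals were background corrected (normexp, offset 50), normalized by loess, and turned to treated over control. Outlier spots (731 to 927 of 42877 per array) were left out. Probes well above background on at least 3 of 4 arrays in at least 1 of 4 RNA groups were kept (12056 of 30367), and the brightest probe stood for a gene. The fit had terms for 8 h, 24 h and dye over all 8 arrays, with Benjamini-Hochberg adjustment over 10849 genes and a threshold of 0.05. Levels were loess-normalized channels after Aquantile scaling. The number of arrays limits the precision. The fit was also run on simulated data with independent errors for each gene and array. Such data lack the outlying arrays seen here, so that run does not tell whether the p-values here are right. Alternatives are those in the closing section.

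Gene symbols were updated by accession where RefSeq (GRCr8) allowed, for 18342 probes. The RefSeq promoter table matched 1 of the 2 members. The members, gene lists and tests were chosen with earlier results of these data known. The text names the members, the 5 genes nearest to each, the close relatives, a few fixed regulators (Foxo1, Foxo3, Foxo4, Klf15, Nr3c1, Myog, Igf1 and Akt1), and up to 10 list members past the threshold per list; other genes named as examples (Skp1, Cul1, Eif3f, Myod1, Ckm and Ttn) were chosen after their values were seen. Some list members are counted but not reported by name here.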

Additional observations from a re-analysis of the deposited data

Results flagged for a closer look

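In 70 sets of 4 arrays examined for a value far from the others (2 were found, and chance marks about 1 in 20), Pik3ip1 at 8 h had one array at -1.11 with the other three between -0.74 and -0.68, and Rbx1 at 24 h had one at 0.42.

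The treated-over-control ratio differed between 24 h and 8 h by limma for 9 named genes, where 1.47% of all genes were called. Ucp3, Klhl38, Mettl7a, Pik3ip1 and Hlx were among the genes nearest to a member on these same arrays, and Myh1 was named for passing the threshold. Their differences are therefore no separate support. The log2 differences were -1.74 for Fbxo32, -1.30 for Ucp3, -1.59 for Klhl38, -1.70 for Mettl7a, -0.999 for Pik3ip1, -1.20 for Hlx, -0.75 for Klf15, 1.37 for Igf1 and 2.88 for Myh1. Hlx was above control on 4 of 4 arrays at 8 h (0.20 to 0.85) and below it on 4 of 4 at 24 h (-1.05 to -0.47). Time and slide cannot be told apart in these differences.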

How the results depend on the processing

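Fbxo32 at 24 h kept its direction and call in 22 of 22 alternatives (-3.22 to -2.14), some of which could not change its ratio. It was the lowest gene in each of the 21 that refit all genes. At 8 h it passed the threshold only without 8 h replicate 2 (leave-one-out range -1.04 to -0.59), and Trim63 at 8 h passed in none of 22 (0.04 to 0.42). Under median centring the typical gene (the median) stood at 0.12 for 8 h and 0.16 for 24 h, with 398 called genes at 24 h (18 lower, 380 higher, against 318 and 453); it ended the calls of Trim63 at 24 h (-0.51) and of Fbxo32 between times (-1.78), and turned LOC303448 at 24 h to 0.013. Leaving out arrays gave Fbxo32 between times -1.89 to -1.44, Trim63 at 24 h -0.79 to -0.50 and Trim63 between times -1.04 to -0.72. Trim63 between times passed the threshold with a normexp offset of 10 (-1.31), with scaling between arrays (-0.91) and with the replicate number as a block (-0.91, limma adjusted p = 0.0202). The exact permutation test of this gene alone gave p = 0.0286, the smallest that 70 splits allow. That value is not adjusted over all genes and is not comparable with the others.

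The 3 genes called at 8 h became 21 with the lower offset, 1 with processed signals, 1 with the authors' table, 0 with median centring, 19 with scaling, 1 without the dye term, 0 with only the 8 h arrays and 7 with the replicate block (leave-one-out 0 to 1235). The 771 at 24 h became 1613 with only the 24 h arrays and 1630 with array weights (leave-one-out 192 to 1245). The 159 between times became 86 with processed signals, 86 with the authors' table, 0 with median centring, 258 with scaling, 95 without the dye term, 303 with array weights and 308 with the block (leave-one-out 30 to 603). The cause was not tested. With the block Pik3ip1 at 8 h (adjusted p = 0.0440) and Gapdh at 24 h (0.0372) also passed. Replicate numbers did not pair the arrays: deviations of same-numbered arrays correlated at -0.26, 0.17, -0.16 and -0.08, and 1 of 8 arrays correlated best with its own number. Of the members, Trim63 had the spots nearest to background.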
